A study of Mus musculus with 6 samples.

Results

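The genes described here encode the calcium handling machinery of striated muscle: Cacna1s, Ryr1, Jph1, Trdn, Casq1, Casq2, Hrc, Atp2a1, Sln and Pvalb. They were taken by symbol, as every probe that the array files give under one of these names, which yielded 16 probes for 10 of the 27574 genes on the array. Each of 6 arrays compared a tumor, labelled with the dye Cy5, with a reference labelled with Cy3. The tumors were raised in female C57Bl/6 mice by inoculating cultured Hepa1-6 cells, a hepatoma line of the mouse, beneath the skin, and were removed at day 15 (tumors 303, 313 and 318) or at day 10 (tumors 302, 307 and 312). The reference on every array is labelled as total RNA from the blood of a female C57Bl/6 mouse without treatment, and no dye swap was made. The labels do not say whether tumors of the same day came from separate animals, so the p-values rest on the spread among tumor samples, which may be technical.

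In skeletal muscle, an action potential runs down the transverse tubule and is sensed there by a calcium channel, which opens a release channel in the facing membrane of the sarcoplasmic reticulum. The released calcium triggers contraction, and a pump returns it to the reticulum, where proteins of high capacity hold it until the next release. Fast fibres also carry a soluble calcium buffer that shortens relaxation. Several of these genes have relatives that serve calcium stores in other cells, heart muscle included.

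Promoter sequences were matched for 7 of the 10 genes, from the RefSeq annotation of build GRCm38.p6. The 250 bases before the annotated start are shown for Pvalb and Hrc, whose tumor signal was not well above background at day 15, and for Cacna1s and Ryr1, which had a probe well above background in all 6 tumors. They lie at chr15:78206401-78206650 (minus strand) for Pvalb, at chr7:45335019-45335268 (plus strand) for Hrc, at chr1:136052561-136052810 (plus strand) for Cacna1s and at chr7:29125152-29125401 (minus strand) for Ryr1. Capitals mark CAGCTG, a form of the E-box bound by muscle regulatory factors such as MyoD, and, in Pvalb, the AT-rich MEF2 motif.
Pvalb: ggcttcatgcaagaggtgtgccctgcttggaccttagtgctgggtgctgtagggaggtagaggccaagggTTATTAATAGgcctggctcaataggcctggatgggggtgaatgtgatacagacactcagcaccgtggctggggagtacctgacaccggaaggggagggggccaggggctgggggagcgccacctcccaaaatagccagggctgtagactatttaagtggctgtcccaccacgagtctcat
Hrc: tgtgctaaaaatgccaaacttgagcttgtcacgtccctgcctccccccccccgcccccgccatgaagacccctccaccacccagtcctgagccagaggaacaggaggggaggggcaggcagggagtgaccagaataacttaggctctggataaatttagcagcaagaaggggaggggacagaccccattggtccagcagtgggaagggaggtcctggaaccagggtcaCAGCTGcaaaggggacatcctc
Cacna1s: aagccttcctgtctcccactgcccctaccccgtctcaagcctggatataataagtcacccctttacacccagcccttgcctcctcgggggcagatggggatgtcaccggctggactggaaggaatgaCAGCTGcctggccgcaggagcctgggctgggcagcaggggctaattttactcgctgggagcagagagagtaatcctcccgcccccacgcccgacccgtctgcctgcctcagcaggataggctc
Ryr1: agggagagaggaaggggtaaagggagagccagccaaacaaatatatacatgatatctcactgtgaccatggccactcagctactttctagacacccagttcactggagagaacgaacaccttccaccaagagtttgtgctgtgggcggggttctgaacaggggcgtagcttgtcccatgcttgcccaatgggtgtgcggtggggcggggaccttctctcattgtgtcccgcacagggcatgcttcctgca
CAGCTG, which reads the same on both strands and is 1 form of CANNTG, was found in 4 of the 7 promoters (Atp2a1, Cacna1s, Casq1 and Hrc) and in 13.0% of the 32851 promoters of the same length in the table. CANNTG was found in 5 of the 7 promoters and in 66.2% of all. The MEF2 motif was found in Casq2 and Pvalb, 2 of the 7, and in 2.92% of all promoters, and the CArG box in 0 of the 7 and in 1.47% of all. Hrc and Cacna1s both hold CAGCTG, while the windows of Pvalb and Ryr1 do not. Each member was read from 1 promoter, that nearest its annotated start, whereas the shares of all promoters counted every promoter listed for a gene.

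Between 52.4% and 58.5% of the spots of an array were well above background in Cy5 by the scanner's flag. All day 15 arrays lay on 1 slide and all day 10 arrays on another, each scanned together, so slide and day cannot be told apart. On the array of tumor 312 an area with 14.2% of the spots had lost signal; 2 member probes lay in it, the dimmer probes of Sln and Cacna1s. The hepatoma genes Alb and Afp had log2 Cy5 signals of at least 17.39 and 18.17 in the other 5 tumors, but of 12.59 and 12.38 in tumor 313. The reference went against its label in part. The hemoglobin genes Hba-a1 and Hbb-bt had log2 Cy3 signals of 11.40 to 13.62 and 10.41 to 11.97. Their Cy5 signals in the tumors were higher, at 15.12 to 17.58 and 15.99 to 18.38. Ptprc, the pan-leukocyte gene, was well above background in Cy3 on 0 of 6 arrays. The keratin genes Krt8 and Krt18 had log2 Cy3 signals of 16.75 to 17.91, and Afp of 15.40 to 17.12, where the 99th percentile of all probes was 15.98. The reference is therefore called the reference labelled blood.

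Sln, Pvalb, Trdn and Hrc, each by its brightest probe, were well above background in Cy5 in 0 of 3 day 15 tumors and in all 3 day 10 tumors, and so was the second probe of Atp2a1. Ryr1 and Cacna1s were well above background in all 6 tumors and lay lower at day 15 by less. Casq1 was above background only in day 10 tumors 302 and 312, Jph1 only in tumor 312, and Casq2 in no tumor. In bulk tissue, fewer cells of a type and less RNA per cell cannot be told apart. The plot of tumor signal by probe shows these values.

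**Figure D1:**
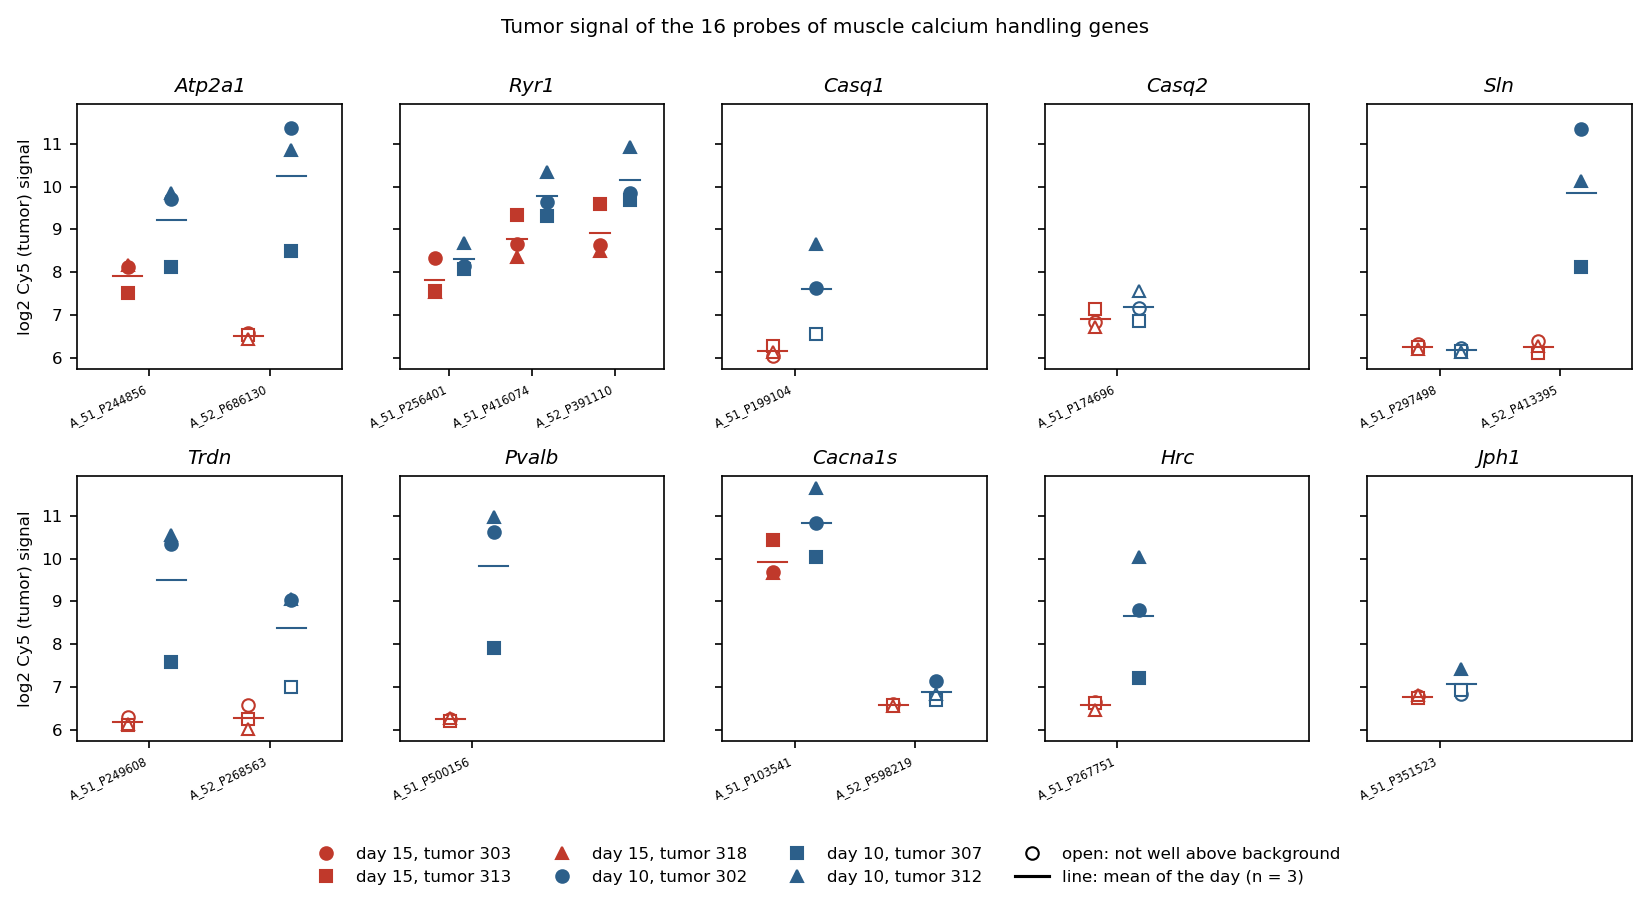
Log2 Cy5 signal (tumor, after quantile normalization between arrays) of all 16 probes of the 10 genes, with day 15 tumors in red to the left of day 10 tumors in blue. Filled points are well above background, open points are not, and the short lines are means of 3 tumors; for Sln the brighter probe lies at 6.11 to 6.39 at day 15 and at 8.12 to 11.35 at day 10.

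The voltage sensor gene Cacna1s, which encodes the pore subunit of the calcium channel of the transverse tubule, was well above background in all 6 tumors by its brighter probe. Its log2 Cy5 signal differed between the days by -0.92 (SE 0.46, limma adjusted p 0.848), which did not pass the test. Its log2 Cy5 signals were 9.68, 10.43 and 9.66 in day 15 tumors 303, 313 and 318, against 10.84, 10.04 and 11.65 in day 10 tumors 302, 307 and 312. The days overlapped, because tumor 313 lay above tumor 307. The log2 ratio to the reference was 3.09 ± 0.41 at day 15 and 3.57 ± 0.36 at day 10 (SD, n = 3 each), a difference of -0.48 (SE 0.28, 95% interval -1.14 to 0.19, limma adjusted p 1), which came to 0 with the scanner's processed signals. The second probe of Cacna1s was well above background in tumor 302 alone, so the probes of this gene disagree in level and its values rest on 1 of them.

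Ryr1 encodes the release channel of the sarcoplasmic reticulum, and its 3 probes share this gene as their target. By the brightest probe, the log2 Cy5 signals were 8.64, 9.59 and 8.50 in day 15 tumors 303, 313 and 318, against 9.86, 9.69 and 10.92 in day 10 tumors 302, 307 and 312. The days did not overlap in Cy5, though tumors 313 and 307 lay close together. The log2 ratios were 1.53, 2.48 and 1.33 at day 15 and 2.65, 2.33 and 2.68 at day 10, and here tumor 313 lay above tumor 307. The difference of the ratio was -0.77 (SE 0.32, 95% interval -1.53 to -0.01) with limma's adjusted p at 1. The other probes gave differences of -0.80 (SE 0.23) and -0.28 (SE 0.22).

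Trdn encodes triadin, which anchors the calcium store to the release channel. Its brighter probe had log2 Cy5 signals of 6.29, 6.11 and 6.13 in day 15 tumors 303, 313 and 318, against 10.34, 7.58 and 10.56 in day 10 tumors 302, 307 and 312. All day 15 values were at the level of background, and tumor 307 was the lowest of day 10. The log2 ratio was 0.12 ± 0.11 at day 15 and 2.55 ± 1.13 at day 10 (SD, n = 3 each). The difference was -2.43 (SE 0.53, 95% interval -3.70 to -1.15, limma adjusted p 0.765). The dimmer probe showed the same order, with mean ratios of 0.08 at day 15 and 1.66 at day 10. Jph1, which encodes junctophilin, a protein that ties the tubule to the reticulum, had log2 Cy5 signals of 6.78, 6.74 and 6.80 in day 15 tumors, against 6.83, 6.93 and 7.43 in day 10 tumors. Only the last of these, tumor 312, was well above background.

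The store proteins were seen mainly through Hrc, the histidine-rich calcium-binding protein of the reticulum. Its log2 Cy5 signals were 6.64, 6.63 and 6.45 in day 15 tumors 303, 313 and 318, against 8.79, 7.21 and 10.03 in day 10 tumors 302, 307 and 312. The days did not overlap. The log2 ratio was 0.34 ± 0.09 at day 15 and 1.95 ± 1.02 at day 10 (SD, n = 3 each), and the difference was -1.61 (SE 0.48, 95% interval -2.76 to -0.46, limma adjusted p 1). Casq1, the calsequestrin of fast fibres, had log2 Cy5 signals of 6.05, 6.27 and 6.13 in day 15 tumors, against 7.62, 6.55 and 8.65 in day 10 tumors, and was too dim on too many arrays to be tested. Casq2, the calsequestrin of heart and slow fibres, lay at 6.84, 7.14 and 6.72 in day 15 tumors, against 7.16, 6.85 and 7.55 in day 10 tumors, and these ranges overlapped at the level of background.

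The genes of calcium uptake and buffering were Sln, Pvalb and Atp2a1. Sln encodes sarcolipin, a small membrane protein that inhibits the calcium pump. Its brighter probe had log2 Cy5 signals of 6.39, 6.11 and 6.27 in day 15 tumors 303, 313 and 318, against 11.35, 8.12 and 10.12 in day 10 tumors 302, 307 and 312. The lowest day 10 tumor, 307, was still above every day 15 tumor. The log2 ratio was -0.23 ± 0.16 at day 15 and 2.93 ± 1.43 at day 10 (SD, n = 3 each), and the difference was -3.16 (SE 0.66, 95% interval -4.76 to -1.57, limma adjusted p 0.702). The other Sln probe was not well above background in any tumor, so the probes disagree and no difference can be read from it.

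Pvalb encodes parvalbumin, the soluble calcium buffer of fast fibres. Its log2 Cy5 signals were 6.25, 6.20 and 6.27 in day 15 tumors 303, 313 and 318, against 10.62, 7.91 and 10.97 in day 10 tumors 302, 307 and 312. The log2 ratio was -0.20 ± 0.17 at day 15 and 2.83 ± 1.18 at day 10 (SD, n = 3 each), and the difference was -3.03 (SE 0.55, 95% interval -4.36 to -1.70, limma adjusted p 0.461). Every day 15 value was near background, and the day 10 tumors had the same order as for Trdn, with 307 the lowest.

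Atp2a1 encodes SERCA1, the calcium pump of fast fibres, and its probes differed in level. The probe that stands for the gene, the brighter over all arrays, had log2 Cy5 signals of 8.11, 7.51 and 8.16 in day 15 tumors 303, 313 and 318, against 9.71, 8.12 and 9.85 in day 10 tumors 302, 307 and 312. It was well above background in all tumors, and the days overlapped. The other probe had 6.57, 6.54 and 6.43 in day 15 tumors, against 11.38, 8.49 and 10.86 in day 10 tumors. It followed the pattern of Sln and Pvalb, with no overlap of the days. The difference of the log2 ratio was -1.16 (SE 0.44, limma adjusted p 1) by the first probe and -2.59 (SE 0.41, limma adjusted p 0.284) by the other.

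**Figure D2:**
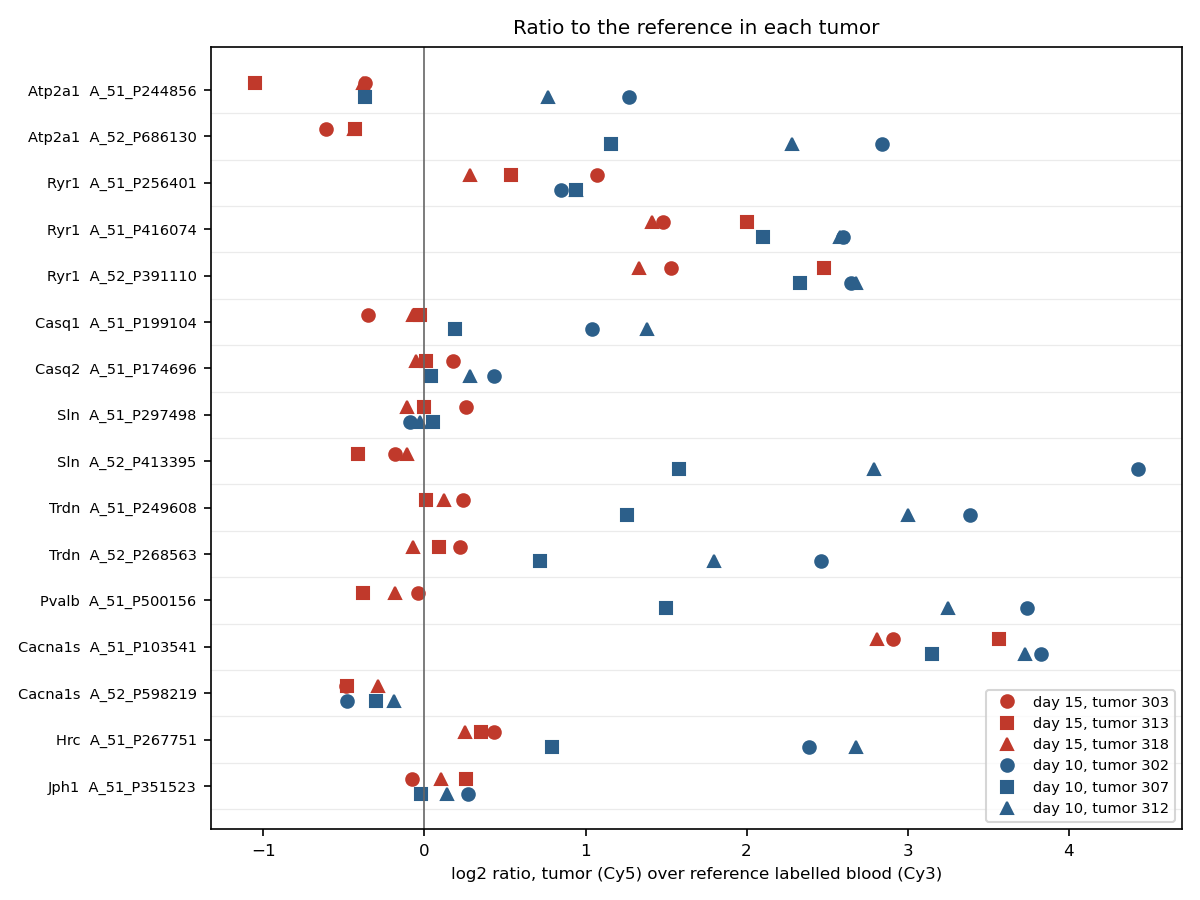
Log2 ratio of tumor (Cy5) over the reference labelled blood (Cy3) for each of the 16 probes (rows) in each tumor, with day 15 tumors in red above day 10 tumors in blue. Tumor 307 (blue square) has the lowest day 10 ratio of Sln, Pvalb, Trdn and Hrc, and Cacna1s (brighter probe) lies between 2.81 and 3.83 in all 6 tumors.

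The comparison of the days was made on the log2 ratio over 15804 genes whose tumor signal was well above background on 3 or more of the 6 arrays. Of the 10 genes, 7 passed this filter: Atp2a1, Ryr1, Sln, Trdn, Pvalb, Cacna1s and Hrc. Sln, Trdn, Pvalb and Hrc passed through the day 10 tumors alone, so they had to lie lower at day 15. None of the 7 passed Benjamini-Hochberg adjustment at 0.05 in limma (0 of 7, against 0.0443% of all genes called lower), and 6 of 7 had an unadjusted p under 0.05 (1.58% of all genes in that direction). Members were called lower under other settings: Pvalb, Sln and Trdn from the scanner's processed signals (3 of 7), with limma adjusted p from 0.0181 to 0.0425. They were among 7 of 15804 genes called lower in that setting. Without day 10 tumor 307 the called members were Hrc, Pvalb and Trdn, among 24 of 15803 genes called lower on the whole array. That holds with the filter read on all 6 arrays; read on the other 5, it left 3 members in the test and 0 were called.

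Counted over all 10 genes with no filter on dim probes, the log2 ratio was lower at day 15 by 1 or more for 6 genes, against 0.733% of all genes in that direction. For Casq1, Hrc, Pvalb, Sln and Trdn, 5 of 10, no day 15 ratio reached the lowest day 10 ratio, which was so for 4.67% of all genes. The median difference over the 10 genes was -1.09, and that over all 27574 genes was 0.01. No member lay higher at day 15 by its mean ratio, with differences from -3.16 to -0.03.

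In the tumor signal, with Cy5 normalized between arrays after loess, the differences were wider and so was the spread. The loess used both dyes, so the reference still entered the Cy5 signal through it. Day 15 minus day 10, the log2 Cy5 signal differed by -3.61 for Sln (SE 0.77), by -3.60 for Pvalb (SE 0.78), by -3.32 for Trdn (SE 0.78) and by -2.10 for Hrc (SE 0.67). Since these 4 genes were not well above background at day 15, their sizes are better given as approximate bounds. With the lost area of tumor 312 kept, the Cy5 signal was at least 7.09-fold lower at day 15 for Sln and at least 7.07-fold for Pvalb. It was at least 5.52-fold lower for Trdn and at least 3.14-fold for Hrc. None passed adjustment in Cy5 (limma adjusted p 0.848 for every tested member, 0 of 7 called, against 0% of all genes), while 6 of 7 had an unadjusted p under 0.05 (2.09% of all genes called lower in that way). Without tumor 307, Pvalb, Sln and Trdn were called, among 22 of 15803 genes called lower on the whole array, and with the filter read on the other 5 arrays 0 of the 3 members still tested were called. Over all 10 genes, 7 had Cy5 signals that did not overlap between the days, Casq1, Hrc, Jph1, Pvalb, Ryr1, Sln and Trdn, against 6.75% of all genes lower in that way. On the array of tumor 312, the members' Cy5 signals were lower by 0.31 to 0.46 when the area of lost signal was left out before normalization. Bounds that use the day 10 signals were taken with that area kept and can therefore be too high.

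With the lost area of tumor 312 kept, the reference channel was not level between the slides for these genes. All 10 then had a lower mean Cy3 signal on the arrays of day 15, by their brightest probe. The median difference was -0.41, against -0.07 over all genes. Non-overlapping Cy3 signals were found for 5 of the 10, Cacna1s, Hrc, Ryr1, Sln and Trdn, against 13.1% of all genes. Most of these signals were close to background, and only Atp2a1 and Ryr1 passed the filter in Cy3. Of these 2, 0 were called (0% of all genes), and 0 had an unadjusted p under 0.05 (1.51% of all genes lower in that way). Their median difference was -0.30, against -0.12 over all genes tested. With the lost area left out, it was -0.15, against -0.02, with Ryr1 at -0.32 and Atp2a1 at 0.02. The second Atp2a1 probe had log2 Cy3 signals of 7.13, 6.94 and 6.93 beside day 15 tumors 303, 313 and 318, against 8.60, 7.37 and 8.55 beside day 10 tumors 302, 307 and 312. Its Cy3 signal was thus highest on the arrays whose Cy5 signal was highest. The part of the reference signal in the ratios was not tested.

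**Figure D3:**
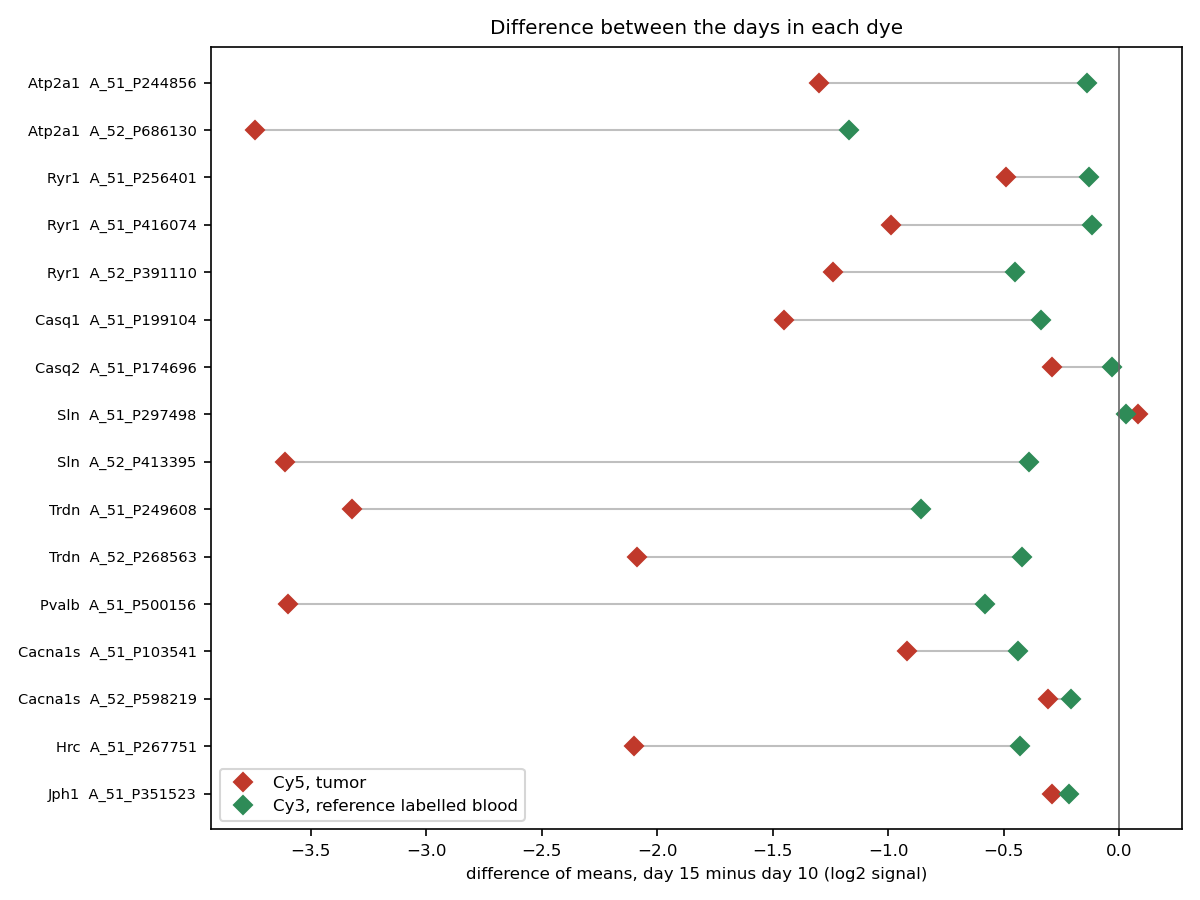
Difference of mean log2 signal, day 15 minus day 10 (n = 3 each, all probes, no filter), in Cy5 (tumor, red) and in Cy3 (reference labelled blood, green) for each of the 16 probes, joined by a grey line. The Cy5 differences reach -3.74 at the second Atp2a1 probe, where the Cy3 difference is -1.17.

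Against the reference labelled blood, 6 of the 7 tested genes were higher in tumor over all 6 arrays at an adjusted p of at most 0.05 and a log2 ratio of at least 1, against 25.5% of the 16320 genes tested. Cacna1s had the highest ratio among them, 3.33 (SE 0.14), and was not well above background in Cy3 on any day 15 array, where its Cy5 signal was at least 8.15-fold higher. Ryr1 had 2.17 (SE 0.16, limma adjusted p 3.7e-05). Sln, Trdn, Pvalb and Hrc had ratios of 1.35, 1.34, 1.32 and 1.15, which average the means of both days. Atp2a1 stood at -0.02 (SE 0.22) by the probe that stands for it, and at 0.80 (SE 0.20) by its second probe, also not called. In the same test 1 other Ryr1 probe had 0.77 and was not called.

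Taken by day, 2 of 7 genes were called higher than the reference at day 15, Cacna1s and Ryr1, against 26.2% of all genes, and 6 of 7 at day 10, against 23.9%. At day 15 the ratios of Cacna1s and Ryr1 were 3.09 and 1.78, and those of Sln, Pvalb, Trdn, Hrc and Atp2a1 lay between -0.60 and 0.34. At day 10 the ratios ran from 3.57 for Cacna1s to 1.95 for Hrc among the called genes, and Atp2a1 had 0.56. By its second probe Atp2a1 had 2.09 at day 10 (SE 0.29, limma adjusted p 0.00105). That probe passed the filter through the day 10 tumors alone. For Ryr1, 1 other probe had 0.63 at day 15 and 0.91 at day 10 and was called on neither. For Hrc, not well above background in Cy3, the Cy5 signal at day 10 was at least 3.26-fold above the reference. Sln, Trdn, Pvalb and Hrc entered these tests through their day 10 signals, so their part in both counts was set by the filter. A call on 1 day and not on the other is no test of the days; that test is the difference given above, which 0 of 7 passed.

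A list of partners of this machinery in the triad and the reticulum was less uniform. It also held Myoz1 and Mylk2, which belong to other parts of the fibre. Of the 28 listed genes, 19 could be tested between the days: 10 had a lower and 9 a higher ratio at day 15, and 0 were called in limma. An unadjusted p under 0.05 was found for 2 of the 10, Myoz1 and Mylk2 (1.58% of all genes lower in that way), and for 1 of the 9. Mylk2 passed the filter through the day 10 tumors alone, so it had to lie lower at day 15. Sypl2, Ryr2, Ryr3, Pln and Slc8a3 were not well above background in any tumor, among them the heart forms of the release channel (Ryr2) and of the pump's inhibitor (Pln). Myoz1, calsarcin-2 of fast fibres, had log2 ratios of 0.29, 0.78 and 0.23 in day 15 tumors 303, 313 and 318, against 3.11, 1.46 and 2.83 in day 10 tumors 302, 307 and 312, a difference of -2.03 (SE 0.44). Mylk2, the myosin light chain kinase of skeletal muscle, had a difference of -1.58 (SE 0.54) and a Cy5 signal at least 3.55-fold lower at day 15, where it was not well above background. Dysf, encoding the membrane repair protein dysferlin, differed the other way by 0.77 (SE 0.29). The differences of Camk2b (-0.94, SE 0.39), Stac3 (-0.54, SE 0.24), a partner of the voltage sensor, and Ank1 (-0.39, SE 0.24) had an unadjusted p above 0.05.

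A further list held calcium store genes of other cells. Of 28 listed, 25 were tested, with 11 lower and 14 higher at day 15, 0 called and 0 at an unadjusted p under 0.05 in either direction, and their median difference was 0.04. The 3 with the smallest p were Stim2, a calcium sensor of the endoplasmic reticulum (0.20, SE 0.12), Rcn1, reticulocalbin (0.65, SE 0.42), and Orai3, a store-operated channel (0.82, SE 0.59). For Orai3 the difference rested on the array of tumor 312, where its log2 Cy5 signal was 6.14, against at least 12.64 on each of the other 5. That array had the area of lost signal, whose part in this value was not tested. Itpr3 of this list, Atp2a2 and Tmem38a of the partner list and the adipocyte marker Adipoq were also low there, at 6.82, 6.13, 6.18 and 6.24. The counts of their lists include these values.

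Markers of fast skeletal fibres moved with the calcium genes. All 12 listed markers were tested, all had a lower ratio at day 15, and 2 of them were well above background in all 6 tumors. Ckm, Actn3, Myh4, Tnnt3 and Mybpc2 passed the filter through the day 10 tumors alone, so they had to lie lower at day 15. By the adjusted test 5 markers fell: Myh4 with a difference of -4.75 (SE 0.20, limma adjusted p 0.00161), Tnnc2 with -4.42, Myh1 with -3.92, Acta1 with -3.67 and Mybpc2 with -3.50. All 5 were well above background in the 3 day 10 tumors and so entered the test; at day 15, Tnnc2 was so in 2 of 3 tumors, Acta1 and Myh1 in 1 of 3, and Myh4 and Mybpc2 in 0 of 3. For Myh4 and Mybpc2 the Cy5 signal was at least 289-fold and at least 37.1-fold lower at day 15. These were among the 7 genes called lower on the whole array. The log2 of the summed Cy5 signal of the 12 markers was 11.22 to 11.59 in day 15 tumors, against 15.14 to 18.30 in day 10 tumors, with tumor 307 at the low end of day 10, as for the calcium genes. Their median log2 Cy3 signal also differed, at 6.64 to 6.88 on day 15 arrays and 7.85 to 9.82 on day 10 arrays. The part of these fibres in the values of the calcium genes was not tested.

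Among slow fibre markers, 5 of 8 were tested and 0 were called. Mb, myoglobin, had a difference of -2.68 (SE 0.39). Its Cy5 signal was at least 10.6-fold lower at day 15, where it was not well above background. Mb passed the filter through the day 10 tumors alone, so it had to lie lower at day 15. Tnnt1 and Tnnc1 had differences of -0.33 and -0.26. Tnnt1 and Myl3 were well above background in all 6 tumors, while the defining genes Myh7 and Myl2 were so in none. Of 8 heart markers, 5 were tested and 0 were called. Tnnt2, Tnni3, Myl4 and Mybpc3 were well above background in all 6 tumors, and Myh6 and Myl7 in none. Tnni3, Mybpc3 and Nppa had differences of 0.28, -0.22 and -0.14. Of the muscle precursor list, only Myh8, the perinatal myosin heavy chain, could be tested, and it fell by 5.09 (SE 0.28, limma adjusted p 0.00474). It was well above background in 1 of 3 day 15 tumors and in all 3 day 10 tumors. Pax7, Myf5 and Myod1 were not well above background in any tumor. Chrna1 was so in 2 of 3 day 10 tumors and in 0 of 3 day 15 tumors. Myog and Myh3 were so in 1 day 10 tumor each, and Cdh15 in 1 tumor of each day. Summed on the log2 scale, slow markers had Cy5 signals of 10.66 to 10.78 at day 15 and 11.20 to 13.31 at day 10, heart markers 12.22 to 13.37 at day 15 and 12.45 to 13.08 at day 10, and precursor markers 9.50 to 9.65 at day 15 and 13.44 to 16.42 at day 10. The precursor sum at day 10 was nearly all Myh8, whose own log2 Cy5 signals were 16.40, 13.33 and 16.15, so it describes that gene and not the list.

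Markers of other tissues were set beside the members. Of 7 tested smooth muscle markers 6 were higher at day 15, with Tagln at 1.64 (SE 0.19), Myh11 at 0.77 and Cnn1 at 2.50, and 0 called. All 7 tested adipocyte markers were higher by their means, 0 of them called. Fabp4 was at 1.41 (the outlier spot of tumor 318 left out), Plin1 at 2.68 and Lipe at 0.57. In Adipoq, Plin1, Cidec, Retn and Cfd, tumor 318 lay far below the other day 15 tumors and below day 10 tumors 302 and 307. The higher means of these genes thus rested on tumors 303 and 313. Of 3 tested skin epithelium markers 0 were called, with differences of 0.40 for Krt10, 0.13 for Krt5 and 0.05 for Krt14. The 7 tested hepatoma markers were all lower by their means, 0 of them called, with Krt8 at -1.20, Krt18 at -0.86 and Afp at -2.24. For Afp the lower mean rested on tumor 313, with a ratio of -4.75, against 2.22 and 3.25 in the other day 15 tumors. The same was so for Alb, Ttr, Ambp and F2, at -2.48, -0.19, -0.99 and 0.15 in tumor 313. In tumors 303 and 318 these were at least 2.75, 3.67, 7.47 and 5.15. In Krt8 all 3 day 15 tumors lay below all day 10 tumors, with tumor 313 the lowest at -2.98. Among the members above background at day 15, tumor 313 differed from tumors 303 and 318 in the log2 ratio: Ryr1 was at 2.48, against 1.53 and 1.33, Cacna1s at 3.57, against 2.91 and 2.81, and Atp2a1 at -1.05, against -0.37 and -0.38.

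**Figure D4:**
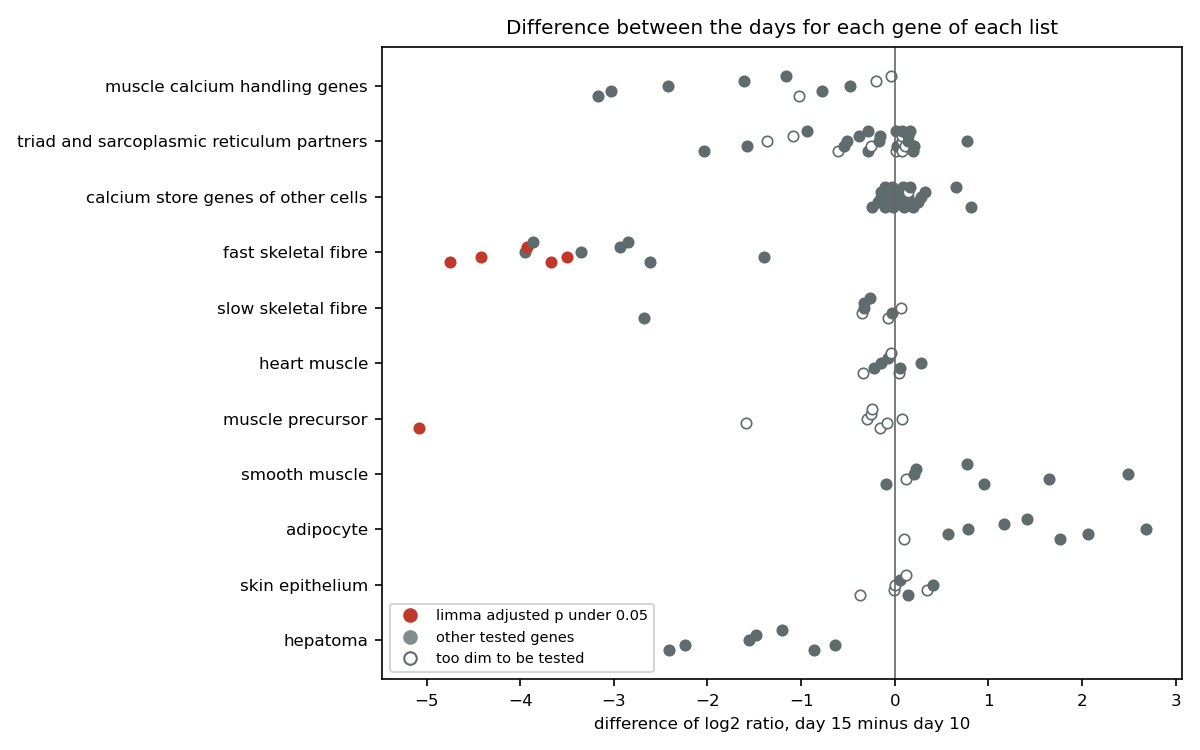
Difference of the mean log2 ratio, day 15 minus day 10 (x axis; n = 3 each), for every gene with a probe in each list (rows). Red points passed limma's adjusted test, grey filled points were tested and did not, and open points were too dim to be tested; the 12 fast fibre markers all lie below 0 and the tested calcium store genes of other cells lie at 0.82 or below.

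Genes outside the list whose Cy5 profile over the 6 tumors was closest to the median profile of the 7 tested members were sought among the 15804 tested genes, by the root mean square difference of centred log2 signals. The nearest 6 were Neb (0.323) and Trim54 (0.323), then Myo18b (0.338), Lmod3 (0.404), Ppp1r27 (0.455) and Myom3 (0.474). Neb, nebulin of the thin filament, had log2 Cy5 signals of 6.62, 6.73 and 6.63 in day 15 tumors 303, 313 and 318, against 9.50, 7.52 and 9.32 in day 10 tumors 302, 307 and 312. Tumor 307 was the lowest of day 10 and the days did not overlap. These genes were picked for likeness to the members' profile, so both traits were set by the choice. Trim54 had 6.89, 6.61 and 7.09 in day 15 tumors, against 9.86, 7.74 and 10.20 in day 10 tumors. Among the members themselves the distance from the median profile ran from 0.158 for Hrc to 1.02 for Sln.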

How the data were processed

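The deposited scanner files come, per the file headers, from Agilent Feature Extraction 9.1.3.1 and hold mean and local background intensity of each spot in both dyes, not normalized, with processed intensities, background-subtracted and dye-normalized by that software. The deposited value table holds log10 ratios, which differed by 0 from the scanner's log ratio; its column medians were 0. In limma 3.58.1 (R 4.3.3), mean intensities were corrected with normexp (offset 50) and normalized by loess within each array. Control spots and 45 to 71 outlier spots per array were left out, and spots of a probe averaged. The Cy5 and Cy3 signals were normalized between arrays by quantiles. Two-sided tests from lmFit and eBayes were adjusted by Benjamini-Hochberg over all tested probes (0.05). Against the reference an absolute log2 ratio of 1 was also required. Probes had to be well above background on 3 of 6 arrays, and a gene was read from its brightest tested probe. Bounds divide the brighter mean by that of the dim side, where an array's dim signal counts as no less than its lowest probe well above background, after loess and Aquantile. The lost area of tumor 312 was kept in them, and without dye swaps they are open to dye bias. The array files name no build, so coordinates are given only for the RefSeq promoters. A further 2 probes, listed as EG432451 and paired with Trdn through an older symbol, were left out. Members, lists and tests were chosen with earlier results of these data known. The named genes were all members, the called genes and a fixed number of smallest p per list (1 gene so named is not reported here), and the 6 genes nearest in profile. The number of arrays limits precision. Tests were checked on simulated data. Alternatives were no background correction, median centring, the processed signals, the value table, other filters, the mean of a gene's probes, the lost area of tumor 312 left out, array position as a block, Aquantile, and each tumor left out.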

Additional observations from a re-analysis of the deposited data

How the results depend on the processing

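No paired analysis was possible because the 3 numbers of one day do not recur on the other; array position, which marks a place on the slide and not a shared animal, was fitted as a block and gave 0 called members between the days in the ratio and in Cy5. The difference between the days stayed below 0 for each of the 7 tested members in every setting that tested it, in the ratio and in Cy5, except that the ratio of Cacna1s differed by 0 with the scanner's processed signals and in the value table. The count of members called lower in the ratio was 3 with the scanner's processed signals (7 of 15804 genes) and 3 with the authors' value table (8 of 15804 genes). It was 0 to 3 when a tumor was left out, in the ratio and in Cy5. In both, the 3 came without tumor 307, where 24 and 22 of 15803 genes were called lower. Members called against the reference numbered 2 of 3 tested when probes had to be well above background on all arrays. That held over all tumors and at day 10, where 3581 and 3463 of 13831 genes were called higher. The stricter filter left fewer genes. Leaving out a tumor gave 2 to 6 members over all tumors and 2 to 6 at day 10. Of 15990 to 16320 genes tested, 3988 to 4350 and 3452 to 4076 were then called higher. The low counts of members arose where the filter was read on the other 5 arrays, an alternative chosen after seeing the data, which left 3 members in the test. Atp2a1 against the reference was called lower at day 15 with the processed signals and with the value table (-1.35 in both, limma adjusted p 0.017, against -0.60) and higher at day 10 as the mean of its probes (1.32) and without tumor 307 (1.02, against 0.56). Direction reversed for values near 0. Atp2a1 in Cy3 was 0.02 with the lost area of tumor 312 left out, and -0.24 to 0.05 when a tumor was left out, above 0 without tumor 312. Atp2a1 against the reference was 0 without background correction and 0.39 as the mean of its probes, and -0.20 to 0.21 when a tumor was left out, above 0 without tumor 307 or without tumor 313 (0.09). At day 15 against the reference, Pvalb was 0.03 and Sln 0.07 with processed signals, and Pvalb, Sln and Trdn were each 0 in the value table; the cause of these reversals was not tested. Median centring without loess moved the median of all genes to -0.30 between the days, against 0.02, and to -0.34 against the reference, against 0.22; genes called lower and higher than the reference were then 4595 and 3239, against 1594 and 4159. Signals near background limit Casq1, Casq2 and Jph1.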
